A study of Mus musculus with 6 samples.

Results

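The 69 gene columns named for the mouse replication-dependent histone clusters were followed in single-cell RNA-seq libraries of cultured myeloid progenitors. Members were all gene columns of the deposited table whose names start with Hist1h, Hist2h, Hist3h or Hist4h, 69 of 27998. The rule reads gene names and no measured value, but it was set with earlier results of these data known. By name the members comprise 6 columns of linker histone H1, 19 of H2A, 19 of H2B, 12 of H3 and 13 of H4. Among them the H2A column Hist1h2al has the RefSeq symbol H2af-ps2, and the H2B symbol Hist2h2bb stands on 2 columns. The cells were iGMPs, granulocyte-macrophage progenitors from mouse bone marrow that were immortalised with the transcription factor HOXA9 fused to the hormone-binding domain of the estrogen receptor, so that estradiol holds them in self-renewal. All 6 groups carry this fusion. The CAF-1 OFF groups come from a clone with an IPTG-inducible short hairpin RNA that targets Chaf1b, which encodes part of CAF-1, a chaperone that deposits H3 and H4 on newly made DNA, sampled at 0 h and after 48 and 96 h in 500 uM IPTG with estradiol kept in the medium. The HOXA9 OFF groups come from a clone with a control hairpin, sampled at 0 h and 48 and 96 h after estradiol was withdrawn. There was 1 library per group and each arm is 1 clone, so no difference between groups could be tested, intervals below cover counting error only, and later libraries were set mainly beside 0 h of their own clone.

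Replication-dependent histone genes supply the core histones H2A, H2B, H3 and H4 and the linker H1 for chromatin made during S phase. Their transcripts are unusual in that most end after a stem-loop, which the stem-loop binding protein Slbp holds, in place of a poly(A) tail. Some of these genes also give polyadenylated transcripts, in particular in cells that have left the cycle. The libraries were primed on poly(A), so the values are not levels of total histone mRNA. Where on the transcripts the reads lie was not examined. Levels are UMIs (unique molecular identifiers, 1 per captured transcript molecule) added up across all kept cells of each library and scaled to 1000000 library UMIs (CPM), with no correction for gene length, so levels are compared between libraries within a gene and not between genes. In summed libraries, fewer expressing cells and less RNA per cell cannot be told apart.

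Of the 67 members with a place in the RefSeq annotation of the GRCm38.p6 assembly, 54 lie on chromosome 13, 10 on chromosome 3, 2 on chromosome 11 and 1 on chromosome 6. The Hist1 genes of chromosome 13 fall into a block of 22 members over 328 kb from 21715711, a block of 31 members over 404 kb from 23531044, and 1 member further along the chromosome. The stem-loop, searched on the transcript strand as GG, 3 letters of any kind, TT, 1 of any kind, T, 1 of any kind, A, 3 of any kind and CC, was found in annotated transcripts of 45 members, and a poly(A) signal (AATAAA or ATTAAA) in the last 60 bases of 17 of the 67 members with an annotated transcript. Both features were present in 13 members. Stem-loops are shown for the members that the results turn on, with the 16 letters of the stem and loop in capitals, to compare members whose annotated transcript runs on past the loop with members whose transcript ends there. In these transcripts 150 bases follow the loop in Hist1h4i, 839 in Hist1h1c, 1487 in Hist3h2a, 7 in Hist1h1a and 4 in Hist1h2ag.
Hist1h4i: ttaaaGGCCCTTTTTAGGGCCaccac
Hist1h1c: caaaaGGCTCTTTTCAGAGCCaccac
Hist3h2a: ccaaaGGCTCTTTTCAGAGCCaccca
Hist1h1a: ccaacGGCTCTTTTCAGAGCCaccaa
Hist1h2ag: acaaaGGCTCTTTTCAGAGCCacct
The first 3 of these, together with Hist1h2bc, whose annotated transcript held no stem-loop letters, have the poly(A) signal, and the last 2 do not. Other members do not follow this pattern: 3050 bases follow the loop in Hist1h1d and 2010 in Hist1h2ac, and neither has the signal.

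Promoter sequences, from 250 bases before to 50 bases after the gene start, were at hand for 61 members (RefSeq, GRCm38.p6). They were searched on both strands for ATTTGCAT, the octamer bound by Pou2f1, for CCAAT and for TATAAA, of which none contains another. The octamer was in 21.3% of member promoters and 1.74% of all 32851 promoters of the same length, CCAAT in 85.2% and 37.4%, and TATAAA in 57.4% and 13.6%. Promoters are shown for members that differed in their values below, with these motifs in capitals.
Hist1h4i, chr13:22041313-22041612, minus strand: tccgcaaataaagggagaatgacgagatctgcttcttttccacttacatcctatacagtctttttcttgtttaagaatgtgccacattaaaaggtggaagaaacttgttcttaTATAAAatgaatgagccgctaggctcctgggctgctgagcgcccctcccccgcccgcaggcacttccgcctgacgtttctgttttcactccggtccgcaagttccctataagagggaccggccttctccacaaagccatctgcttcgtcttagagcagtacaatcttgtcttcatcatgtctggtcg
Hist1h1c, chr13:23738557-23738856, plus strand: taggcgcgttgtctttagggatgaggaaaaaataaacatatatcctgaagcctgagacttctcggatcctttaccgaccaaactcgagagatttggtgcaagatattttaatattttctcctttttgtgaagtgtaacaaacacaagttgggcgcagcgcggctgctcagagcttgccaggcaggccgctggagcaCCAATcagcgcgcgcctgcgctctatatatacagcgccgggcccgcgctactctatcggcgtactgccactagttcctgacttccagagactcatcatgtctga
Hist3h2a, chr11:58954435-58954734, plus strand: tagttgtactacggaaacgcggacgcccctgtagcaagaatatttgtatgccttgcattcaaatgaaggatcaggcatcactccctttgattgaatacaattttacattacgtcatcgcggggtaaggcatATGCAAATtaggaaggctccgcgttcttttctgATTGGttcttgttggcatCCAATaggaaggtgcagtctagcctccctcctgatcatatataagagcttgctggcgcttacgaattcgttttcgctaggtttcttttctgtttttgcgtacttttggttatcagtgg
Hist1h1a, chr13:23763418-23763717, plus strand: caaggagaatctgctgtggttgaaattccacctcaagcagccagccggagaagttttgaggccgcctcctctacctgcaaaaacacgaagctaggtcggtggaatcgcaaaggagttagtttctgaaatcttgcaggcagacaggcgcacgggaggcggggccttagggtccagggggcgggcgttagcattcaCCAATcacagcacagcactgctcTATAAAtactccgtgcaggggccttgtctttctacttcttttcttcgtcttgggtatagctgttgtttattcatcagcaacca
Hist1h2ag, chr13:22042900-22043199, minus strand: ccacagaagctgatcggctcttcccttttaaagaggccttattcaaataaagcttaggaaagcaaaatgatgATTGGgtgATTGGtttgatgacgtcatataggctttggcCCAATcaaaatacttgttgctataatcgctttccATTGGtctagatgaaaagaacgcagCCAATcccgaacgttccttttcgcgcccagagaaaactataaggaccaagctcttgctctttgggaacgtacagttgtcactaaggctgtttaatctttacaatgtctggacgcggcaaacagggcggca
In this window Hist1h4i held TATAAA only, Hist1h1c CCAAT only, Hist3h2a the octamer and CCAAT, Hist1h1a CCAAT and TATAAA, and Hist1h2ag CCAAT only. The window of Hist1h2ag overlaps that of Hist1h2bj, its neighbour on the other strand. A match is a description of the letters and not a bound site.

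The 6 libraries held 473 to 1510 kept cells and 3524285 to 5589486 UMIs, of which 815 to 3689 came from members. The cell filter removed 41.7% and 66.2% of the barcodes at 0 h in the CAF-1 OFF and HOXA9 OFF clones. It removed at most 18.3% in the later libraries, so the ratios to 0 h rest on the more heavily filtered libraries. The median UMI count per cell was 2044 to 8660, lowest in HOXA9 OFF cells at 96 h. No pair of libraries shared more than 7 cell barcodes. Chaf1b was at 35.6, 3.22 and 6.49 CPM over time in CAF-1 OFF cells, and at 51.5, 15.3 and 1.13 CPM in HOXA9 OFF cells. Progenitor markers (8 genes, summed) were at 6581 to 11371 CPM in the 0 h and CAF-1 OFF libraries and at 120 CPM in HOXA9 OFF cells at 96 h. Late granulocyte markers (11 genes, summed) went from 29.4 to 10464 and 151142 CPM in HOXA9 OFF cells and were 33.9, 719 and 1205 CPM with CAF-1 OFF, with 7 and 6 of the 11 at 0 UMIs at 0 h in the CAF-1 clone and the HOXA9 OFF clone. With CAF-1 OFF the megakaryocyte markers (4 genes) also went from 45.3 to 2696 CPM at 96 h and the mast cell or basophil markers (6 genes) from 259 to 4000 CPM. Eosinophil markers (4 genes) ranged from 227 to 19257 CPM over the libraries, highest in HOXA9 OFF cells at 48 h, and erythroid markers (5 genes) from 0.284 to 295 CPM, while 7 genes not expressed in blood held 1 UMI in all. The part of these cell types in the results below was not tested.

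The members together were at 326 CPM (95% Poisson interval 309 to 344) at 0 h, 660 (639 to 682) at 48 h and 611 (591 to 632) at 96 h in CAF-1 OFF cells. The HOXA9 OFF libraries gave 343 CPM (326 to 362), 198 (186 to 210) and 231 (216 to 248). The 0 h libraries of both clones differed by a ratio of 1.05 (0.976 to 1.13), and the later libraries of the arms lay on opposite sides of them. The sum was 2.02-fold higher at 48 h (95% interval 1.90 to 2.15) and 1.87-fold higher at 96 h (1.76 to 2.00) in CAF-1 OFF cells. It was 1.74-fold lower at 48 h (1.60 to 1.88) and 1.49-fold lower at 96 h (1.36 to 1.62) in HOXA9 OFF cells. The last value depended on the scaling of the library: the log2 ratio of -0.57 became -0.084 with TMM factors and -0.0052 with median-of-ratios factors, which moved every gene of that comparison by 0.49 and 0.57, and -0.997 with totals that leave out mitochondrial and ribosomal protein genes.

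A few members made up much of the sum. Hist1h4i, Hist1h2bc, Hist1h1c and Hist3h2a, the members with the most UMIs, held 41.4%, 59.5% and 70.4% of the member UMIs in CAF-1 OFF cells at the 3 times. For HOXA9 OFF cells these shares were 32.4%, 62.7% and 87.9%. The other 65 members together were at 191, 267 and 181 CPM in CAF-1 OFF cells. At 48 h they were 1.40-fold higher than at 0 h (95% interval 1.28 to 1.52), and at 96 h the ratio was 0.945 (0.860 to 1.04). In HOXA9 OFF cells they were at 232, 73.6 and 28.1 CPM, 3.15-fold lower at 48 h (2.80 to 3.56) and 8.27-fold lower at 96 h (6.72 to 10.3). This split was made after the levels were seen.

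**Figure D1:**
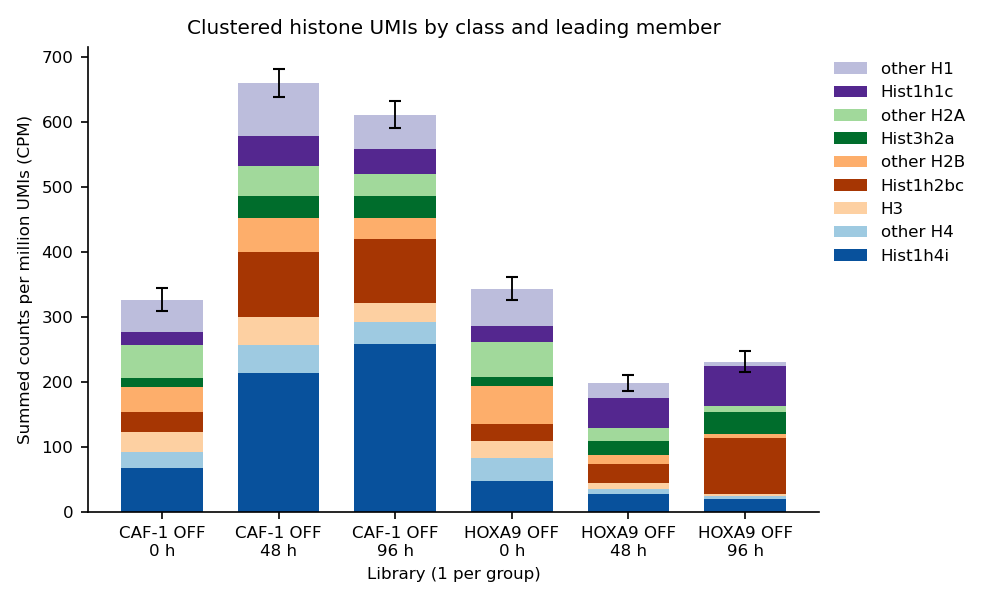
Stacked bars give the summed level in CPM of each histone class in the 6 libraries, with the leading member of H4, H2B, H2A and H1 apart from the rest of its class, and error bars give the 95% Poisson interval of the whole sum. The sum is 326 CPM at 0 h in CAF-1 OFF cells and 660 and 611 CPM later, with Hist1h4i the largest segment, while at 96 h in HOXA9 OFF cells the 4 leading members make up 87.9% of a bar of 231 CPM.

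The histone classes differed in both arms. H4 members, the core of the tetramer with H3, were at 91.4, 256 and 293 CPM in CAF-1 OFF cells, 2.81-fold higher at 48 h and 3.20-fold higher at 96 h. The H4 sum of HOXA9 OFF cells was 83.1, 35.4 and 24.4 CPM, 2.35-fold and 3.40-fold lower. H3 members were at 31.1, 43.7 and 28.2 CPM in CAF-1 OFF cells and at 26.5, 8.29 and 2.27 CPM in HOXA9 OFF cells, the last being 8 UMIs and 11.7-fold lower than at 0 h (95% interval 5.72 to 27.7). H2B members were at 69.8, 153 and 131 CPM in CAF-1 OFF cells and at 84.5, 42.9 and 93.6 CPM in HOXA9 OFF cells, where the 96 h ratio was 1.11 (0.951 to 1.29). H2A members were at 63.8, 80.0 and 68.2 CPM in CAF-1 OFF cells and at 67.8, 42.4 and 41.7 CPM in HOXA9 OFF cells. The H1 members were at 70.5, 127 and 91.2 CPM in CAF-1 OFF cells. In HOXA9 OFF cells they were at 81.6, 68.5 and 69.2 CPM, and the log2 ratio of -0.25 at 48 h became 0.052 with TMM factors. At 96 h the H1 log2 ratio of -0.24 became 0.25 with TMM and 0.33 with median-of-ratios factors, and the H2B log2 ratio of 0.15 in HOXA9 OFF cells became -0.28 with the total that leaves out mitochondrial and ribosomal protein genes.

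Without its leading member, each of 4 classes looked different at 96 h in HOXA9 OFF cells. H2B without Hist1h2bc was 9.405-fold lower (6.07 to 15.3), H1 without Hist1h1c 9.14-fold lower (5.90 to 14.9), H4 without Hist1h4i 8.24-fold lower (4.84 to 15.1) and H2A without Hist3h2a 6.05-fold lower (4.16 to 9.05). With H3, whose sum is given above, the level outside the leading members was lower at that time in all 5 classes. The leading members were picked by their UMIs in these same libraries, so a lower level of the rest is partly built into the split. At 0 h in the HOXA9 OFF clone, Hist3h2a was at 12.9 CPM, below Hist1h2ap at 18.4 CPM. In CAF-1 OFF at 96 h, H4 without Hist1h4i was 1.43-fold higher (1.12 to 1.84), whereas the intervals for H1 without Hist1h1c and H2B without Hist1h2bc included no change. H2A without Hist3h2a was 1.44-fold lower there (1.17 to 1.76).

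Single members were described by size. A gene was called when its level differed at least 2-fold after 1 CPM was added to both libraries and reached at least 10 CPM in 1 of them. In CAF-1 OFF at 48 h, 12 of the 69 members could be read this way and 4 were higher (Hist1h4i, Hist1h2bc, Hist1h1c and Hist3h2a), where 5.27% of all 6909 genes read were higher. Hist1h2ap was the only one of the 12 that was lower, against 0.304% of all genes. At 96 h, 10 members could be read, of which 3 (Hist1h4i, Hist1h2bc and Hist3h2a) were higher and Hist1h2ap was lower, against 9.70% and 2.85% of all genes. The median log2 ratio of the members read was 0.78 at 48 h and 0.64 at 96 h, beside 0.0038 and -0.10 over all genes read.

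In HOXA9 OFF at 48 h, 0 of the 10 members read were higher and 4 were lower (Hist1h1a, Hist1h1b, Hist1h2ag and Hist1h2bj), against 16.2% and 26% of all genes. At 96 h, 3 of 10 were higher (Hist1h2bc, Hist1h1c and Hist3h2a) and the other 7 were lower, against 23.7% and 41.4% of all genes. The median log2 ratio of the members read was -0.88 at 48 h and -2.12 at 96 h, beside -0.29 and -0.53 over all genes read. Scaling moved these backgrounds: higher genes made up 38.4% of all calls at 48 h and 55.4% with TMM factors or 51.5% with median-of-ratios factors, with 2 or 1 members higher and 2 lower. At 96 h the share was 36.4%, and it was 50.7%, 52.9% and 26.2% with TMM factors, median-of-ratios factors and the smaller total, with 3, 3 and 1 members higher and 4, 4 and 13 lower. Between 48 and 96 h, 0 of 11 members read passed the rule in CAF-1 OFF cells, against 1.85% of genes higher and 0.616% lower, and of 5 read in HOXA9 OFF cells Hist1h2bc was higher and 0 were lower, against 13% and 22.6%. No member passed the rule between the 0 h libraries of the 2 clones, where 1.39% of genes were higher and 0.463% lower in the HOXA9 OFF clone.

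Hist1h4i, a histone H4 gene on chromosome 13 (H4c9 in RefSeq, 22040960 to 22041362), had the most UMIs of any member in CAF-1 OFF cells. These cells gave 67.4, 214 and 258 CPM at the 3 times, from 284, 1196 and 1393 UMIs. The HOXA9 OFF libraries gave 48.0, 26.7 and 20.1 CPM. The CAF-1 OFF values lay above their 0 h library and the HOXA9 OFF values below theirs, with intervals that did not overlap. The level was 3.18-fold higher at 48 h (2.79 to 3.63) and 3.83-fold higher at 96 h (3.37 to 4.37) in CAF-1 OFF cells. In HOXA9 OFF it was 1.79-fold lower at 48 h (1.44 to 2.24) and 2.38-fold lower at 96 h (1.81 to 3.17). These intervals leave out the scaling. TMM and median-of-ratios factors moved every log2 ratio of HOXA9 OFF at 96 h by 0.49 and 0.57, beside -1.25 for Hist1h4i. The 0 h libraries themselves differed 1.40-fold, the HOXA9 OFF clone being the lower. Of the windows of 75 bases in its annotated transcript, 31.5% occur in another member. How many of its reads fall in such windows was not examined.

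Hist1h2bc, Hist1h1c and Hist3h2a had higher levels at 96 h in both arms, under each scaling tried. Hist1h2bc, an H2B gene (chromosome 13, 23684199 to 23692480), measured 31.8, 99.3 and 99.9 CPM in CAF-1 OFF cells and 25.8, 29.6 and 87.4 CPM in HOXA9 OFF cells. It was 3.14-fold higher at 96 h in CAF-1 OFF (2.60 to 3.83) and 3.39-fold higher in HOXA9 OFF cells (2.71 to 4.26). The higher level was already present at 48 h in CAF-1 OFF cells, whereas in HOXA9 OFF cells the 48 h ratio was 1.15 (0.892 to 1.48) and the 96 h library was 2.96-fold above the 48 h library (2.43 to 3.61). Hist1h2ac, the H2A gene next to it, held 0 to 8 UMIs in any library.

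Hist1h1c, a linker histone gene (H1f2 in RefSeq, chromosome 13, 23738807 to 23739531), measured 21.4, 46.0 and 38.2 CPM in CAF-1 OFF cells and 24.6, 45.8 and 63.0 CPM in HOXA9 OFF cells. All 4 later libraries were above their 0 h library, by 1.79-fold to 2.56-fold. Hist3h2a, an H2A gene outside the large clusters (chromosome 11, 58954685 to 58955192), was at 14.5, 33.5 and 33.9 CPM and at 12.9, 21.8 and 32.6 CPM. It was 2.34-fold higher at 96 h in CAF-1 OFF (1.75 to 3.19) and 2.53-fold higher in HOXA9 OFF (1.82 to 3.57). Its RefSeq gene overlaps Trim17, which held at most 1 UMI in any library.

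**Figure D2:**
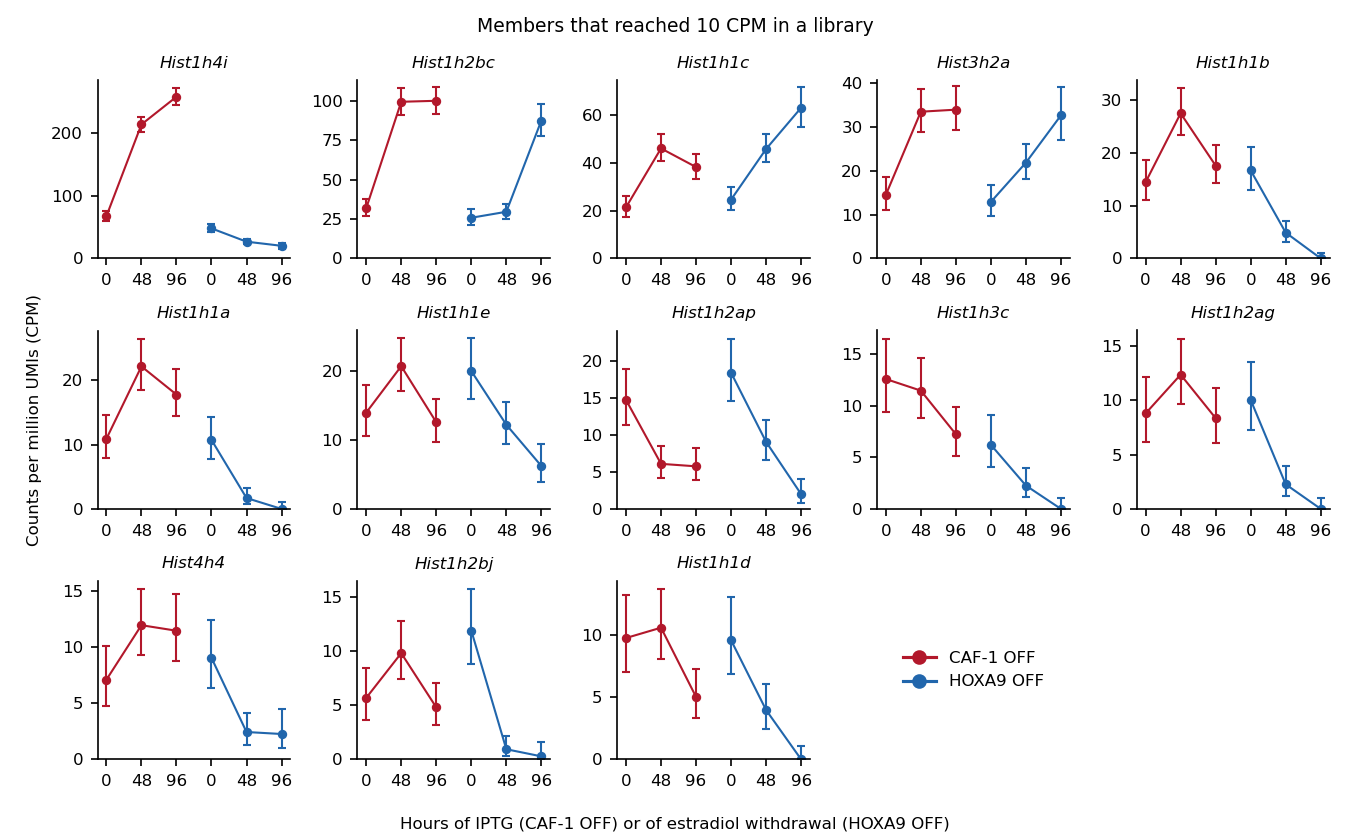
Each panel plots the level in CPM of 1 of the 13 members that reached 10 CPM in a library, by hours in CAF-1 OFF (red) and HOXA9 OFF (blue), with 95% Poisson intervals; the vertical scales differ between panels and start at 0. Hist1h4i separates the arms, from 258 CPM in CAF-1 OFF cells to 20.1 CPM in HOXA9 OFF cells at 96 h, Hist1h2bc, Hist1h1c and Hist3h2a are above 0 h in both arms at 96 h, and Hist1h2ap is below 0 h in both.

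The other linker histone genes were low in HOXA9 OFF cells. Hist1h1b (H1f5) measured 14.5, 27.6 and 17.6 CPM in CAF-1 OFF cells and 16.7, 4.90 and 0 CPM in HOXA9 OFF cells. With 0 UMIs set to a floor of 3 counts in that library, its level at 96 h was at least 19.6-fold lower. Hist1h1a (H1f1) measured 10.9, 22.2 and 17.8 CPM in CAF-1 OFF cells, and 10.7, 1.69 and 0 CPM in HOXA9 OFF cells, at least 12.6-fold lower at 96 h by the same floor. Both were highest at 48 h in the CAF-1 OFF clone, where Hist1h1a was 2.03-fold (1.44 to 2.92) and Hist1h1b 1.90-fold (1.41 to 2.60) above 0 h. Hist1h1d (H1f3) measured 9.73, 10.6 and 5.01 CPM in CAF-1 OFF cells and 9.55, 3.95 and 0 CPM in HOXA9 OFF cells. Hist1h1e (H1f4) kept a measurable level, with 14.0, 20.8 and 12.6 CPM in CAF-1 OFF cells and 20.05, 12.2 and 6.24 CPM in HOXA9 OFF cells. Thus Hist1h1c and Hist1h1e were the H1 genes with UMIs at 96 h in HOXA9 OFF cells, and their levels lay on opposite sides of 0 h. Hist1h1t, the testis H1 gene, had 0 UMIs in all 6 libraries.

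Among the core histone genes, Hist1h2ap was lower at both times in both arms, by 2.42-fold (1.57 to 3.79) and 2.56-fold (1.64 to 4.08) in CAF-1 OFF cells and by 2.03-fold (1.40 to 2.98) and 9.25-fold (4.28 to 23.8) in HOXA9 OFF cells. In the older annotation searched, its coding sequence is identical to that of Hist1h2ao and each window of 75 bases of its transcript occurs in another member. These sequences thus do not assign the value to this gene alone, and how the counting treated shared reads was not examined. Hist1h3c, an H3 gene, measured 12.6, 11.5 and 7.23 CPM in CAF-1 OFF cells and 6.20, 2.26 and 0 CPM in HOXA9 OFF cells. Hist1h2ag and Hist1h2bj, the divergent H2A and H2B pair whose promoter is shown above, are given side by side. Hist1h2ag was at 8.78, 12.3 and 8.34 CPM and then 10.0, 2.26 and 0 CPM. Hist1h2bj was at 5.69, 9.84 and 4.82 CPM and then 11.9, 0.942 and 0.284 CPM. In both of them the highest CAF-1 OFF value was at 48 h and the HOXA9 OFF values went down with time. Hist4h4, the single H4 gene of chromosome 6, measured 7.12, 12.0 and 11.5 CPM in CAF-1 OFF cells and 9.07, 2.45 and 2.27 CPM in HOXA9 OFF cells, 1.61-fold higher (1.03 to 2.59) and 3.995-fold lower (1.84 to 9.91) at 96 h.

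**Figure D3:**
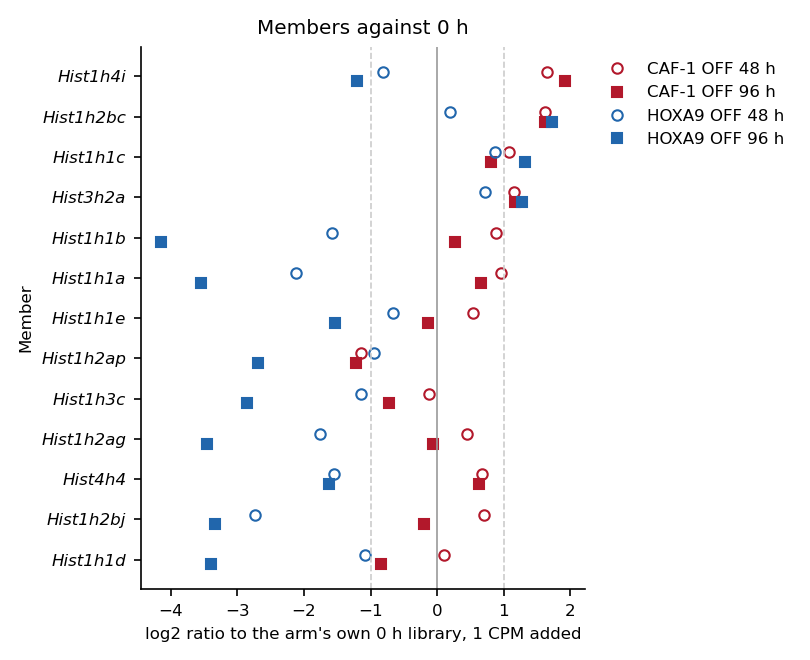
The horizontal axis gives the log2 ratio of each of the 13 members to the 0 h library of its own arm after 1 CPM was added, for CAF-1 OFF (red) and HOXA9 OFF (blue) at 48 h (open circles) and 96 h (squares), with dashed lines at a 2-fold difference. At 96 h in HOXA9 OFF cells 10 members lie left of 0 and 3 to its right, with Hist1h1b at -4.15 and Hist1h2bc at 1.72, while in CAF-1 OFF cells the values lie between -1.22 and 1.92.

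The remaining 54 members with a UMI stayed under 10 CPM in every library, 41 of them under 5 CPM, and are not read one by one. Members with 0 UMIs numbered 12, 10 and 10 of 69 at the 3 times of the CAF-1 OFF arm. Their number was 12, 16 and 44 over the same times for HOXA9 OFF cells. The 96 h library of HOXA9 OFF cells had 3524285 UMIs against 4190199 at 0 h, and the floor of 3 counts there is 0.851 CPM. Hist1h2br and Hist1h1t had 0 UMIs in every library. Of the members with an annotated transcript, 25 share over 50% of their windows of 75 bases with another member and 9 share none, and 8 members have a coding sequence identical to that of another member. One such pair was Hist2h2aa1, with UMIs in all 6 libraries, and Hist2h2aa2, with 5 UMIs in HOXA9 OFF cells at 96 h and 0 elsewhere.

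The members were also summed by whether their annotated transcript has a poly(A) signal near its end, a feature that uses no measured value, although the grouping was added after levels were seen. The 17 members with the signal were at 155, 420 and 454 CPM in CAF-1 OFF cells and at 137, 134 and 213 CPM in HOXA9 OFF cells. The 50 members without it were at 171, 238 and 156 CPM in CAF-1 OFF cells and at 204, 62.7 and 18.2 CPM in HOXA9 OFF cells. At 96 h in HOXA9 OFF cells the first sum was 1.55-fold higher than at 0 h (1.39 to 1.73) and the second 11.2-fold lower (8.69 to 14.7). The 13 members with the signal other than Hist1h4i, Hist1h2bc, Hist1h1c and Hist3h2a were nevertheless at 26.3, 9.79 and 9.93 CPM in HOXA9 OFF cells, 2.64-fold lower at 96 h (1.79 to 3.99), so members with the signal did not all share a direction.

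The share of cells with a member UMI was read after each cell was thinned to 1300 UMIs, which left out 1 to 134 shallower cells of a library. It was 32.4% (exact 95% interval 28.8 to 36.2), 53.5% (50.2 to 56.8) and 49.8% (46.5 to 53.1) in CAF-1 OFF cells, and 37.7% (33.3 to 42.3), 20.6% (18.5 to 22.8) and 23.5% (21.3 to 25.8) in HOXA9 OFF cells. Hist1h4i UMIs occurred in 7.58%, 19.96% and 25.3% of cells with CAF-1 OFF and in 5.72%, 3.63% and 2.69% of HOXA9 OFF cells. Hist1h2bc UMIs occurred in 5.06%, 12.0% and 10.3% of cells with CAF-1 OFF and in 3.60%, 4.07% and 10.7% of HOXA9 OFF cells. UMIs of the other 65 members were found in 28.2% of cells at 0 h and 3.63% at 96 h in HOXA9 OFF cells, and in 21.01%, 27.1% and 20.3% in CAF-1 OFF cells. Without thinning the whole share was 81.1%, 92.2% and 88.1% in CAF-1 OFF cells and 86.0%, 42.2% and 34.9% in HOXA9 OFF cells. No cell type of these cultures is known to lack histone RNA, so the share that free RNA gives could not be measured.

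Cells were then divided by their UMIs of 25 S phase genes (replication genes such as the Mcm helicase subunits and Pcna) after thinning, as ranges and not as phases. The S phase list measured 3022, 2896 and 2316 CPM in CAF-1 OFF cells and 2739, 764 and 58.2 CPM in HOXA9 OFF cells. A list of 25 G2/M genes was at 2539, 2886 and 2789 CPM and at 2484, 1094 and 29.2 CPM. In HOXA9 OFF cells both lists, the members other than the 4 most abundant and Hist1h4i were all lower at 96 h. In CAF-1 OFF cells at 96 h the S phase sum was 1.30-fold lower and the G2/M sum 1.10-fold higher. There Hist1h4i was 3.83-fold higher, and the ratio of the members other than the 4 most abundant was 0.945 (0.860 to 1.04). The part of the cell cycle in these values was not tested.

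Within the HOXA9 OFF library at 48 h, the members were read by S phase UMIs. The other 65 members were at 37.9 CPM in the 1158 cells with 0 to 1 such UMIs, 135 CPM in the 148 cells with 2 to 4 and 176 CPM in the 70 cells with 5 or more, a ratio of 4.64 between the last and the first (2.49 to 8.20). Hist1h2bc, Hist1h1c and Hist3h2a together were at 126, 67.6 and 22.0 CPM in these cells, the last from 2 UMIs. Ranges made from unthinned cells gave 45.1, 163 and 177 CPM for the 65 members and 111, 45.9 and 74.9 CPM for the 3, the last from 25 UMIs (48.5 to 111). By G2/M UMIs the 3 were at 117, 115 and 96.9 CPM. The higher level of the 65 members in cells with more S phase UMIs was thus seen with and without thinning. For the 3, the level was highest in the lowest S phase range both ways, and the order of the other ranges differed. The thinned ratio of the highest to the lowest range was 0.174 (0.0209 to 0.638), and the unthinned intervals of these ranges overlapped (48.5 to 111 and 101 to 121). Hist1h4i was at 21.9, 72.8 and 65.9 CPM. At 96 h, 1368 of 1376 cells had 0 to 1 S phase UMIs, so the ranges could not be compared.

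In CAF-1 OFF at 96 h, Hist1h4i was at 277, 240 and 244 CPM in the 339, 336 and 227 cells of the lowest, middle and highest range, a ratio of 0.881 between the highest and the lowest (0.649 to 1.19). The high Hist1h4i level of this library was thus present in each range. At 0 h it was at 54.5, 54.8 and 82.1 CPM in the same ranges, below the 96 h value in each. Hist1h2bc, Hist1h1c and Hist3h2a together were at 263, 169 and 84.7 CPM at 96 h, a ratio of 0.322 (0.200 to 0.499), and the other 65 members at 172, 172 and 213 CPM. With the G2/M list in place of the S phase list, Hist1h4i was at 160 CPM in the 360 cells of the lowest range and at 375 CPM in the 275 cells of the highest, whereas at 0 h it was at 67.9 and 62.5 CPM in these ranges. Between 57 and 234 cells of each library other than HOXA9 OFF at 96 h had 4 or 5 S phase UMIs, next to the upper limit.

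**Figure D4:**
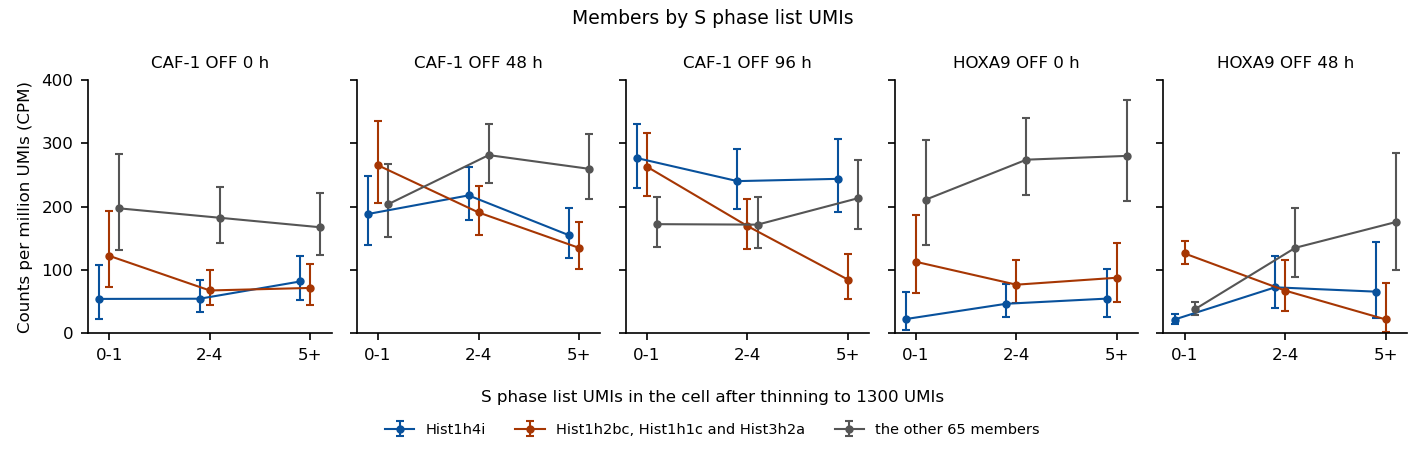
Panels give, for 5 libraries, the level in CPM of Hist1h4i (blue), of Hist1h2bc, Hist1h1c and Hist3h2a together (brown) and of the other 65 members (grey) in cells with 0 to 1, 2 to 4 and 5 or more S phase list UMIs after thinning to 1300 UMIs, with 95% Poisson intervals. In HOXA9 OFF at 48 h the grey line goes from 37.9 to 176 CPM while the brown line goes from 126 to 22.0 CPM, the last from 2 UMIs; HOXA9 OFF at 96 h is not drawn since 1368 of its 1376 cells are in the lowest range.

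A list of 17 genes for histone gene transcription, histone mRNA processing and decay was read in the same way. Of the 15 that could be read in CAF-1 OFF cells, 0 were higher or lower at 48 h, and at 96 h Sympk and Nasp were lower, against 2.85% of all genes. Nasp, a chaperone that binds H3 and H4, measured 179, 115 and 82.1 CPM in CAF-1 OFF cells and 149, 33.7 and 6.24 CPM in HOXA9 OFF cells. In HOXA9 OFF, 3 of 15 were lower at 48 h (Npat, Cstf2 and Nasp), against 26% of all genes. At 96 h, 10 were lower, against 41.4% of all genes, and Lsm10 was higher, against 23.7%. Slbp, which binds the stem-loop, measured 334, 362 and 333 CPM in CAF-1 OFF cells and 259, 196 and 121 CPM in HOXA9 OFF cells, 2.14-fold lower at 96 h. Npat, the coactivator of histone gene transcription, was at 14.2, 10.2 and 9.08 CPM and at 11.5, 4.52 and 1.99 CPM. Eri1, an exonuclease that trims histone mRNA, was at 48.2, 56.9 and 38.9 CPM and at 42.0, 21.3 and 9.65 CPM. Lsm10, a protein of the U7 particle that takes part in cutting histone transcripts, was at 40.8, 67.2 and 111 CPM in HOXA9 OFF cells, whereas Lsm11 of the same particle was at 16.2, 8.85 and 1.42 CPM. Over the 15 genes read at 96 h in HOXA9 OFF cells the median log2 ratio was -1.17, beside -0.53 over all genes read.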

How the data were processed

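Live cells were sorted by the authors, who made 10x Chromium 3' libraries, aligned them to GRCm38 with Cell Ranger (version 3.0.1 in the submitters' processing notes) and deposited whole-number UMI counts per gene and barcode, with 7821 barcodes in 6 libraries. Cells with 200 to 6000 genes and at most 10% mitochondrial UMIs were kept, the limits of the study (5872 cells). This removed 66.2% of the barcodes in HOXA9 OFF at 0 h and 41.7% in CAF-1 OFF at 0 h, and 0.198% to 18.3% in the later libraries. The 0 h libraries, to which the later ones are compared, thus lost the largest shares. UMI counts were summed per library and divided by the library total (CPM). Cells are not replicates and each group had 1 library, so no test was made. Intervals are exact at 95% (Poisson for levels, conditional binomial for ratios, Clopper-Pearson for shares) and cover counting error only. A library at 0 UMIs was set to 3 counts for a bound. Members with at least 10 CPM in a library were named one by one. The call rule was tried on simulated libraries with 4-fold changes in genes of at least 20 CPM, which does not cover 2-fold changes or lower levels. Scrublet, in scanpy 1.11.5, called 125 cells (2.13%), which the main values keep. TMM factors came from edgeR 4.0.16. Cells were thinned with a fixed seed. Transcript features came from an older annotation (GENCODE for NCBIM37), used for sequence and not for coordinates. Members and lists were chosen with earlier results of these data known. Alternatives were other scalings, cell filters, levels, folds and added values, thinning depths and a G2/M list. Paralogs share sequence, and how reads from shared sequence were counted could not be seen in the deposited counts. The symbol Hist2h2bb stands on 2 columns, both kept.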

Additional observations from a re-analysis of the deposited data

Results flagged for a closer look

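Some of the named members and sums read lay on opposite sides of 0 h in the arms at 96 h. Their counting intervals left out no change on both sides. The log2 ratio of the whole sum was 0.905 in CAF-1 OFF cells and -0.571 in HOXA9 OFF cells. The second became -0.084 with TMM and -0.0052 with median-of-ratios factors, which moved every log2 ratio of that library by 0.49 and 0.57, and the first was -0.082 without the 4 most abundant members. Without Hist1h4i alone the sum gave 0.446 and -0.485, the second being no larger than these shifts. For the Hist1 cluster the ratios were 0.894 and -0.685, and for the Hist2 cluster 0.765 and -1.139. The H4 members gave 1.679 and -1.767, and 0.517 and -3.043 without Hist1h4i. Of the 13 named members the cases were Hist1h4i, Hist1h1a and Hist4h4, which makes up the Hist4 cluster. Hist1h4i was at 1.938 and -1.252, Hist1h1a at 0.705 and -3.657, where the second is a bound, and Hist4h4 at 0.691 and -1.998. These cases share members and libraries, and the whole sum, the Hist1 cluster and the H4 members all include Hist1h4i. The share of all genes with such ratios was not counted, so the number of cases is not read as a result about the members. With 1 library and 1 clone per arm, the difference between the arms was not tested.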

How the results depend on the processing

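No paired analysis was possible because each group has 1 library, and for the same reason no library could be left out of a group. Of 416 values for named members under the alternatives, 375 stayed within the counting interval of the reported ratio and 41 moved outside it, and 7 changed sign, all for ratios whose interval included no change. Of 120 for class sums, 100 stayed and 4 changed sign, all in HOXA9 OFF cells: the H1 sum at 48 h (log2 ratio of 0.052 with TMM factors) and, for ratios whose interval included no change, H1 at 96 h (0.25 with TMM, 0.33 with median-of-ratios factors) and H2B at 96 h (-0.28 with the smaller total). The whole sum stayed within its interval in 20 of 32 cases. In CAF-1 OFF cells its log2 ratio without Hist1h4i was 0.78 (48 h) and 0.45 (96 h). Without the 4 most abundant members, a choice made after seeing the data, it was 0.48, -0.082 (reversed), -1.66 and -3.05 for 48 and 96 h of CAF-1 OFF and of HOXA9 OFF. In HOXA9 OFF at 48 h it was -0.49 with TMM factors, -0.56 with median-of-ratios factors and -0.66 with at most 5% mitochondrial UMIs. At 96 h it was -0.084, -0.0052 and, with the total that leaves out mitochondrial and ribosomal protein genes, -0.997. TMM and median-of-ratios factors moved all log2 ratios of HOXA9 OFF by 0.30 and 0.24 at 48 h and by 0.49 and 0.57 at 96 h, and the smaller total moved those of 96 h by -0.43.

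Counts of members changed with the rule by its own construction. In CAF-1 OFF at 48 h, members higher numbered 7 with at most 5% mitochondrial UMIs, 2 with 10 CPM added, 7 at 1.5-fold and 0 at 4-fold, and members lower numbered 0 without doublet calls, with 10 CPM added, at a level of 20 CPM and at 4-fold. At 96 h, members higher numbered 6 with no level and at 1.5-fold and 0 at 4-fold, and members lower 0 with 10 CPM added, at 20 CPM and at 4-fold, and 2 with no level and at 1.5-fold. In HOXA9 OFF at 48 h, members higher numbered 2 with TMM factors and at 1.5-fold, and 1 with median-of-ratios factors and with at most 5% mitochondrial UMIs. Members lower numbered 2 with both factors and at 4-fold, 10 with the smaller total, 1 with 10 CPM added, 0 at 20 CPM, 14 at 5 CPM, 28 with no level and 7 at 1.5-fold. At 96 h, members higher numbered 1 with the smaller total and 0 at 4-fold, and members lower 4 with both factors, 13 with the smaller total, 2 at 20 CPM, 20 at 5 CPM and 36 with no level. Of all genes, 1882 were lower in HOXA9 OFF at 48 h, against 1303, 1404 and 2202 with TMM, median-of-ratios and smaller-total scaling. At 96 h the numbers were 3141, 2432, 2339 and 4170 in the same order. For the other rules the share over all genes is not given here, so those counts are not read as results about the members.

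The share of cells with a member UMI rises with depth by construction. At 2600 UMIs it was 58.2%, 76.5% and 72.9% in CAF-1 OFF cells and 53.7%, 33.9% and 36.6% in HOXA9 OFF cells, with 290 of 1404 and 1084 of 1510 shallower cells left out of the last 2, and without thinning 81.1%, 92.2%, 88.1%, 86.0%, 42.2% and 34.9%. The ratio of the whole sum between the highest and the lowest range was 1.26 and 1.69 with the G2/M list and 0.835 and 0.761 with the S phase list for the later CAF-1 OFF libraries, and the cause was not tested. Depth limits single members: 41 of the 67 with a UMI never reached 5 CPM, and 2 had no UMI.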
